A study of Mus musculus with 16 samples.

Results

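The genes described here encode the acid-producing pump, the proteases and the other digestive machinery of the lysosome: the vacuolar H+-ATPase (V-ATPase) with its accessory proteins, the cathepsins, 7 lysosomal membrane proteins, 8 hydrolases and activators, and the single genes Npc2 and Tfeb. They were chosen by a rule on names: symbols that start with Atp6v0, Atp6v1 or Atp6ap, symbols of Cts followed by 1 letter, and 17 named genes. The rule itself uses no measured value, but the genes were chosen with earlier results of these data known. The rule found 55 of the 17097 genes that had a probe set with a single symbol. These were 8 subunits of the membrane sector V0, 10 subunits of the catalytic sector V1, 2 accessory proteins, 14 cysteine cathepsins, 4 aspartic or serine cathepsins, 7 membrane proteins, 8 hydrolases and activators, Npc2 and Tfeb. Further V-ATPase genes, among them Atp6v0c, Atp6v1c1 and Atp6v1g1, had no probe set of that kind and were not analysed here.

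RNA of quadriceps muscle was measured on 16 Affymetrix arrays, each from a separate mouse, in 4 groups of 4. The groups were Mfn2 KO mice of 22 months (old KO), control mice of 22 months (old control), Mfn2 KO mice of 6 months (young KO) and control mice of 6 months (young control). Mfn2 codes for mitofusin 2, which sits on the mitochondrial surface and joins mitochondria to each other. Strain, sex and the way in which Mfn2 was deleted are not given in the sources used here, and neither is what the controls carry. All values are log2 signals as the authors deposited them, so that differences between groups are log2 differences. The 4 values of a group are given in the order of replicate numbers 1 to 4.

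The V-ATPase uses ATP to pump protons into the lysosome: V1 lies in the cytosol and splits ATP, V0 lies in the membrane and carries the protons. The acid lumen activates cathepsins, which cut proteins, and glycosidases such as Hexa and Gaa, which take apart glycolipids and glycogen. Transcription of many of these genes is raised by Tfeb, a factor known to bind a palindromic E-box called the CLEAR element, and in muscle lysosomes clear glycogen, damaged proteins and worn mitochondria delivered by autophagy.

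The stretches below, taken from promoter windows, show where that element lies in some of these genes, because it is the sequence feature by which lysosomal genes are known to be controlled together. They come from RefSeq, mouse build GRCm38.p6, in a table that holds 250 bases before to 50 after a start site. Of the 55 genes, 46 were matched by symbol. Both strands were searched for TCACGTGA, which reads the same on both strands, and for TCACGTG, which the 8-base motif contains. The 8-base motif stood in 7 of 46 genes (15.2%), namely Atp6v0d1, Atp6v0e, Atp6v1a, Ctsa, Ctsd, Gla and Mcoln1, and in 1.12% of all 27025 genes with such a window. The 7-base form stood in 11 of 46 (23.9%) and in 4.29% of all genes, and the 6-base core CACGTG in 13 of 46 (28.3%) and in 8.09%. A match is a description of the letters in the window, and binding was not measured.

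The first 4 stretches, from the windows of pump and cathepsin genes, surround the 8-base motif and are given on the strand of the gene, 5′ to 3′, with matches to the 7-base form on either strand in capitals. The window of Ctsd held a further 7-base match at -245 from the start site, outside the stretch shown.
Atp6v0e (chr17:26676373-26676408, plus strand): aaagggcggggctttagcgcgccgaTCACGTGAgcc
Atp6v1a (chr16:44139359-44139416, minus strand): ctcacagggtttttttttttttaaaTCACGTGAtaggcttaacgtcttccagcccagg
Ctsa (chr2:164833735-164833787, plus strand): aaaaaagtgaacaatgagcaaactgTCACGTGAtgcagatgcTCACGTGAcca
Ctsd (chr7:142387894-142387951, minus strand): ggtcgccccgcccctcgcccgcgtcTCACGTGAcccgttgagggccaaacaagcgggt
The membrane protein Lamp1 had the 7-base form 4 times and the 8-base motif not once, and the glycosidase Gaa had the 7-base form 1 time.
Lamp1 (chr8:13159074-13159163, plus strand): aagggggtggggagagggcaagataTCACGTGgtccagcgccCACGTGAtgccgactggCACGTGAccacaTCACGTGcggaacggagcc
Gaa (chr11:119267797-119267853, plus strand): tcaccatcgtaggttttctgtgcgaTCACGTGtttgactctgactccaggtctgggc
Hexa, the gene with the smallest p of the 55 for age, had none of the 3 motifs in its window, and the 100 bases before its start site are shown for comparison.
Hexa (chr9:59539440-59539539, plus strand): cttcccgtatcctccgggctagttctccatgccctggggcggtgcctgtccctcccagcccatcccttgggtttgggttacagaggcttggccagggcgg

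**Figure D1:**
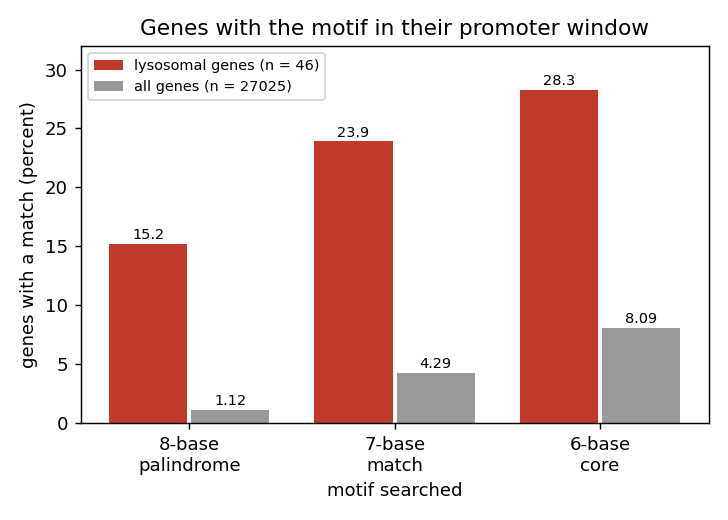
Share of genes (percent) with each motif in the window from 250 bases before to 50 after the start site, for the 46 lysosomal genes matched in RefSeq and for all 27025 genes. The bars stand at 15.2%, 23.9% and 28.3% for the lysosomal genes, and at 1.12%, 4.29% and 8.09% for all genes.

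Mfn2 itself gave 8.31, 8.01, 6.32 and 8.32 in old KO muscle, against 8.52, 8.67, 8.34 and 9.18 in old control muscle, and 8.41, 8.49, 8.38 and 8.54 in young KO muscle, against 8.66, 9.05, 8.03 and 9.45 in young control muscle. The old groups did not overlap and the young groups did, none of these differences passed the test, and whether this probe set lies in the deleted stretch is not given. Arrays with the same replicate number moved together, so every comparison was fitted without and with the replicate number as a block. The labels' families were not balanced over age, with families A and B in old mice alone and C and D in young mice alone. Both ages shared only the label Other, on 1 old KO, 1 old control, 1 young KO and 2 young control arrays. Fits with family therefore link the ages only through these arrays. Families were uneven over genotype too. Family A was on 3 old KO arrays and 1 old control array, and family B on 2 old control arrays alone. Family D was on 2 young KO arrays and 1 young control array, and family C on 1 of each. The genotype differences of single genes given below are from fits without family. The muscle identity of the samples showed in all 12 fibre markers, whose mean lay between 12.01 and 12.20 in every array.

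Age gave the only call among the 55 genes. Averaged over KO and control mice, Hexa was higher in old muscle by 0.22 (log2), 1 of the 55 genes past the threshold with the replicate block, where 0.579% of all genes passed; without the block 0 of 55 passed and 0.0585% of all genes did. No member passed for genotype in old mice, genotype in young mice, genotype over both ages or the interaction, in either fit, where 0.0% of all genes passed. No member passed for age in KO mice alone, where 0.0175% of all genes passed without and 0.0234% with the block, or for age in control mice alone, where 0.0% passed without and 0.0468% with it. The call is an adjusted p under 0.05 (limma, two-sided, Benjamini-Hochberg over all 17097 genes).

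At an unadjusted p under 0.05 without the block, 5 of the 55 genes differed by age over both genotypes, against 3.52% of all genes, and each of the 5 was higher in old muscle, as were 1.86% of all genes. They were Hexa, Ctss, Gaa, Lamp1 and Atp6ap2. With the block there were 8, all higher in old muscle, where 11.7% of all genes passed this limit and 5.25% did so in that direction. The 3 further genes were Atp6v0a1, Atp6v0e and Atp6v1a. In KO mice alone 3 of 55 passed the same limit without the block and 5 with it, against 2.59% and 10.2% of all genes. In control mice alone 4 passed without and 7 with the block, against 2.12% and 9.64% of all genes. Old muscle was higher in 39 of the 55 genes, where 45.5% of all genes were higher, with a median of 0.03 for the 55 and -0.0091 for all genes. Within KO mice 34 of 55 were higher in old muscle (47.1% of all genes) and within control mice 39 (46.9%). Among genes at or above the median gene in signal, 44.9% were higher over both genotypes, 41.2% in KO mice and 51.7% in control mice. Of the 38 members at that level, 29, 27 and 29 were higher. Most differences were small: 54 of the 55 lay within 0.3 of 0, with Ctss as the exception, and the median SE was 0.084 without and 0.060 with the block.

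**Figure D2:**
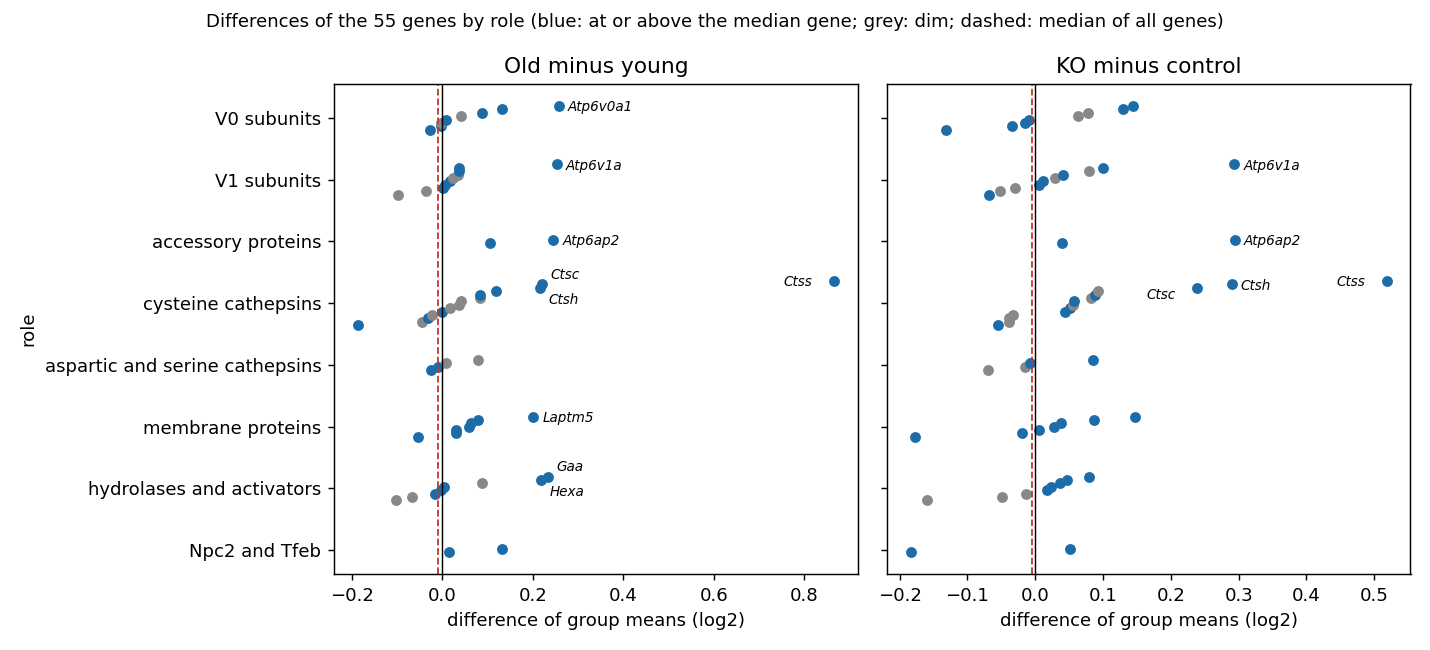
Difference of group means (log2) of each of the 55 genes by role, old minus young over both genotypes (left) and KO minus control over both ages (right). Ctss lies apart from the rest in both panels, at 0.87 and 0.52, and the other 54 genes lie within 0.3 of 0.

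Hexa encodes the alpha subunit of beta-hexosaminidase, which removes terminal sugars from gangliosides in the lysosome. Its signal was 9.70, 9.74, 9.59 and 9.61 in old KO muscle, against 9.45, 9.51, 9.39 and 9.43 in young KO muscle. In control mice it was 9.65, 9.73, 9.52 and 9.44 in old muscle, against 9.43, 9.42, 9.36 and 9.23 in young muscle. Within each genotype every old mouse was above every young mouse, while over all 16 mice the ages overlapped, since old control number 4 lay below young KO numbers 1 and 2. In same-numbered mice the old one was higher in 8 of 8 pairs, which held for 1.15% of all genes and for 2 of the 55, the other being Atp6ap2. Old and young did not overlap for 3 of the 55 in KO mice (Hexa, Gaa and Atp6ap2), against 1.8% of all genes, and for 2 in control mice (Hexa and Lamp1), against 1.52%.

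The age difference of Hexa was 0.22 in KO mice (SE 0.074) and 0.22 in control mice (SE 0.074), with an interaction of -0.004 (SE 0.105). Over both genotypes it was a 1.16-fold difference (log2 0.22, SE 0.0525), with an adjusted p of 0.283 in limma without the block and 0.0172 with it (SE 0.038). Hexa was also higher in KO than in control muscle in 8 of 8 same-numbered pairs, by 0.0796 (SE 0.0525). With the block the age call was lost without young control number 2 (adjusted p = 0.0505), young KO number 1 (0.0526) or young KO number 2 (0.0537). It was also lost with family beside the block, at 0.19 (SE 0.093, adjusted p = 0.730), and the difference was 0.14 (SE 0.104) with family and no block. The signal of the pyruvate carboxylase control, 3′ minus 5′ end, had group means of 0.032 in old KO, -0.042 in old control, -0.11 in young KO and -0.13 in young control muscle, with overlapping groups. By replicate number its means were -0.20 and -0.28 for numbers 1 and 2, against 0.13 and 0.093 for numbers 3 and 4. With that signal and the block in the fit the Hexa difference was 0.23 (SE 0.067, adjusted p = 0.454).

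**Figure D3:**
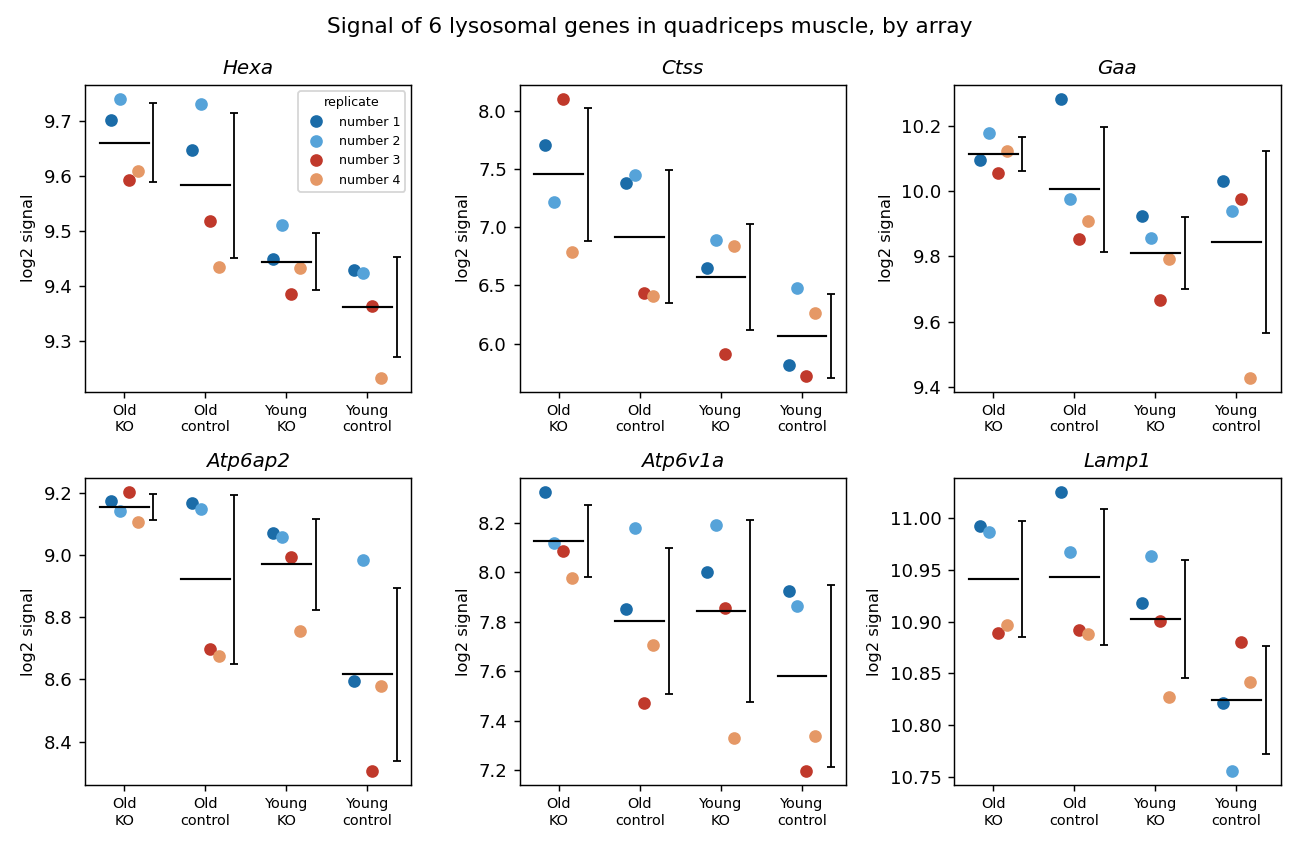
Log2 signal of 6 genes in each of the 16 arrays, with old KO, old control, young KO and young control from left to right, colours for the replicate number, the group mean as a line and the SD as a bar. Hexa shows old above young within each genotype, and Ctss has the widest spread within groups.

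Gaa encodes acid alpha-glucosidase, which breaks down glycogen in the lysosome and whose loss causes Pompe disease. It gave 10.10, 10.18, 10.06 and 10.12 in old KO muscle, against 9.92, 9.86, 9.67 and 9.79 in young KO muscle, so that these groups did not overlap. In control mice it gave 10.28, 9.98, 9.85 and 9.91 in old muscle, against 10.03, 9.94, 9.97 and 9.43 in young muscle, and these groups overlapped. The age difference was 0.30 in KO mice (SE 0.12) and 0.16 in control mice (SE 0.12), and the interaction of 0.14 (SE 0.17) did not pass the test. Over both genotypes the difference was 0.23 (SE 0.084), with an adjusted p of 0.174 with the block.

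Of the other 6 hydrolases and activators, 3 were above the median gene. Psap, the precursor of 4 activator proteins for the breakdown of sphingolipids, ranged over 0.22 across all 16 arrays, from 11.10 to 11.32. Its age difference over both genotypes was -0.0031 and its genotype difference 0.0225 (SE 0.0345 each). Lipa, the acid lipase of cholesterol esters, and Tpp1, a tripeptidyl peptidase, differed by at most 0.047 in these 2 comparisons by their brightest probe sets. The second probe set of Lipa gave 0.21 by genotype and 0.088 by age. Gusb, Glb1 and Gla, which are glycosidases, were dim, which here means a mean over 16 arrays below that of the median gene (5.15). Gla differed between KO and control muscle by -0.16 (SE 0.0906) and was lower in KO in 5 of 8 pairs.

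Among the cathepsins, cysteine proteases made up most of the genes and Ctss the largest difference. Ctss encodes cathepsin S, which is known from macrophages and other antigen-presenting cells, where it trims the invariant chain. It gave 7.71, 7.21, 8.10 and 6.79 in old KO muscle, against 6.65, 6.89, 5.91 and 6.84 in young KO muscle. In control mice it gave 7.38, 7.45, 6.44 and 6.41 in old muscle, against 5.82, 6.47, 5.72 and 6.26 in young muscle. Old and young overlapped in both genotypes, and old was above young in 7 of 8 same-numbered pairs.

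The age difference of Ctss over both genotypes was 1.82-fold (log2 0.87, SE 0.23), with an adjusted p of 0.4405 in limma without the block and 0.0877 with it. It was 0.88 in KO mice and 0.85 in control mice (SE 0.32 each). By genotype, KO was above control by 0.52 over both ages (SE 0.23, adjusted p = 0.526 with the block), and in 7 of 8 pairs. With family in the fit the age difference was 0.19 (SE 0.37), and 0.047 (SE 0.36) with family and the block. Without old KO number 3, the highest of the 16 values, the age difference was 0.67 with the block and the genotype difference over both ages 0.33.

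Macrophage markers moved beside Ctss by age: 14 of 16 were higher in old muscle over both genotypes, where 45.5% of all genes were, with a median of 0.45. With the block 1 of them, Mpeg1, passed, as did 0.579% of all genes. By genotype over both ages 12 of 16 were higher in KO muscle, where 47.1% of all genes were, with a median of 0.14. At an unadjusted p under 0.05, 0 of the 16 differed by genotype without or with the block, against 1.55% and 8.47% of all genes. The mean of the list lay between 5.61 and 6.05 in old KO muscle and between 5.15 and 5.80 in young KO muscle. It lay between 5.49 and 6.12 in old control muscle and between 5.26 and 5.47 in young control muscle. Of the 16 markers 7 were dim, Adgre1 and Cd68 among them. Itgam and Cx3cr1, also dim, were lower in old muscle, while Lyz2 differed by 0.75 (SE 0.20) and C1qb by 0.78 (SE 0.27).

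Markers of other cells also differed by age. In the list for granulocytes and mast cells, old muscle was higher for 9 of 11 genes, where 45.5% of all genes were higher, and Elane and Mpo were lower. The mast cell proteases Mcpt4 (0.55) and Cma1 (0.45) passed with the block, as did 0.579% of all genes. Of the 11 genes 10 were dim, Mcpt4 among them. The mean of that list lay between 4.35 and 4.5998 in old KO, 4.38 and 4.66 in old control, 4.16 and 4.38 in young KO, and 4.07 and 4.50 in young control muscle. Of 7 fibroblast markers 2, Dcn and Pdgfra, were higher in old muscle, where 45.5% of all genes were. The collagen genes Col1a1 (-1.04) and Col3a1 (-0.81) passed as lower in both fits. Of all genes 0.0585% passed without and 0.579% with the block. The mean of the fibroblast list lay between 7.24 and 7.66 in old KO, 7.21 and 7.63 in old control, 7.57 and 8.06 in young KO, and 7.53 and 7.87 in young control muscle. Of 6 endothelial markers 6 were lower in old muscle over both genotypes, 6 in KO mice alone and 4 in control mice alone. By genotype 6 were higher in KO muscle over both ages, where 47.1% of all genes were. In young mice alone 6 were higher in KO muscle and in old mice alone 5. The interaction was below 0 for 6 of the 6, and 0 passed in these comparisons. KO minus control for the 3 fat cell markers measured ran from -2.93 to -0.45 in young mice and from 0.22 to 0.94 in old mice, with 0 passing. In bulk muscle more cells of a type and more RNA per cell cannot be told apart, and the part of these cells in the values of Ctss was not tested.

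The remaining cathepsins differed less by age. Ctsc, an activator of immune cell serine proteases, gave 0.22 over both genotypes (SE 0.21) and Ctsh, an aminopeptidase, 0.22 (SE 0.30). Both varied widely over arrays, with Ctsh between 4.74 and 6.48. Ctsb and Ctsl, broad lysosomal proteases, differed by 0.0846 (SE 0.0429) and 0.0006 (SE 0.0884). Ctsk, known for degrading collagen in bone, was the member with the lowest age difference (-0.19, SE 0.16), and in KO mice old was below young in 4 of 4 pairs (-0.38, SE 0.23). Ctsd, the main aspartic protease of lysosomes, ranged only from 9.96 to 10.35, and Ctsa, a serine carboxypeptidase that protects other lysosomal enzymes, differed by -0.0098 (SE 0.14).

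Of the 18 cathepsins 8 were dim, namely Ctsj, Ctsm, Ctso, Ctsq, Ctsr and Ctsw among the cysteine proteases, and Ctse and Ctsg. Of these, Ctsj, Ctsm, Ctsq and Ctsr are known from the mouse placenta. Ctsg, a serine protease of neutrophils and mast cells, had the smallest p of the 55 genes for genotype in old mice without the block. Its signal was 3.54, 3.41, 3.34 and 3.22 in old KO muscle, against 3.51, 3.62, 3.53 and 3.54 in old control muscle, which overlap (-0.17, SE 0.086; adjusted p = 0.715 with the block). In young mice it was 3.56, 3.41, 3.55 and 3.36 in KO muscle, against 3.43, 3.61, 3.42 and 3.29 in control muscle (0.031, SE 0.086). Ctso, a cysteine protease, gave 3.29, 3.14, 3.32 and 3.73 in old KO muscle, against 3.08, 2.93, 3.33 and 3.41 in old control muscle. Its difference was 0.18 (SE 0.16), at signals near the lower end of the arrays, and 0.060 without old KO number 4.

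Genotype was then compared over the pump. Over both ages 35 of the 55 genes were higher in KO muscle, where 47.1% of all genes were, with a median of 0.04 against -0.0050 for all genes. At an unadjusted p under 0.05, 2 of 55 differed without the block and 5 with it, all of them higher in KO muscle, against 1.55% and 8.47% of all genes in either direction, and 0.842% and 4.47% in that direction. The 2 were Atp6ap2 and Ctss, and the 3 further ones were the pump subunits Atp6v0d1, Atp6v0e and Atp6v1a. In old mice 29 of the 55 were higher in KO muscle, where 48.4% of all genes were, and in young mice 38 of the 55, where 47.8% were. Among genes that were not dim, 52.9% were higher in KO muscle over both ages, 46.9% in old mice and 56.9% in young mice. Of the 38 members that were not dim, 28, 22 and 27 were higher. At the unadjusted limit 0 of 55 differed in old mice without the block and 4 with it (1.14% and 6.62% of all genes), and in young mice 1 and 2 (1.7% and 9.43%). KO and control overlapped for each of the 55 at both ages, while 0.907% of all genes did not overlap in old mice and 1.36% in young mice. The signs depended on the probe set: of 24 members with several, 12 had the same sign in all of them by genotype over both ages. By age over both genotypes 16 of the 24 did. With dim probe sets left out, 12 of 19 members had 1 sign by genotype and 14 of 19 by age.

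Atp6ap2, the prorenin receptor, is an accessory protein that the pump needs for its assembly. It gave 9.18, 9.14, 9.20 and 9.11 in old KO muscle, against 9.17, 9.15, 8.70 and 8.67 in old control muscle. Young KO muscle gave 9.07, 9.06, 8.995 and 8.76, against 8.60, 8.98, 8.31 and 8.58 in young control muscle. KO was above control in 7 of 8 pairs and the groups overlapped at both ages, with a tight old KO group and 2 lower old control arrays, numbers 3 and 4. The genotype difference was 0.29 over both ages (SE 0.10; adjusted p = 0.332 with the block), 0.23 in old mice (SE 0.14) and 0.35 in young mice (SE 0.14; adjusted p = 0.392 with the block).

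By age, Atp6ap2 was higher in old muscle in 8 of 8 pairs, by 0.25 over both genotypes (SE 0.10) and by 0.31 in control mice (SE 0.14). In this brightest probe set the old KO arrays were all above the young KO arrays, at a difference of 0.19 (SE 0.14). The other 2 probe sets of Atp6ap2 gave genotype differences of 0.27 and 0.35 over both ages and age differences of 0.24 and 0.15. In KO mice alone their age differences were 0.16 and -0.085. Atp6ap1, the other accessory protein, differed by 0.0395 by genotype and by 0.105 by age (SE 0.078 each).

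Atp6v1a is the V1 subunit that splits ATP, and the only V1 gene at an unadjusted p under 0.05 by age or genotype with the block. It gave 8.32, 8.12, 8.09 and 7.98 in old KO muscle, against 7.85, 8.18, 7.47 and 7.71 in old control muscle. In young mice it gave 8.00, 8.19, 7.85 and 7.33 in KO muscle, against 7.92, 7.86, 7.20 and 7.34 in control muscle. KO was higher in 6 of 8 pairs, by 0.29 (SE 0.15; adjusted p = 0.414 with the block), and the groups overlapped at both ages. Its second probe set gave a smaller difference of 0.099, with 0.24 in old mice and -0.0435 in young mice.

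Atp6v1e1, a stalk subunit that joins V1 to V0, gave 9.43, 9.50, 9.27 and 9.18 in old KO muscle, against 9.43, 9.41, 9.32 and 9.44 in old control muscle. Young KO muscle gave 9.42, 9.49, 9.35 and 9.44, against 9.37, 9.25, 9.29 and 9.25 in young control muscle. The young KO mouse was higher in 4 of 4 pairs (0.14, SE 0.075), while in old mice the difference was -0.0565 (SE 0.075). The interaction, -0.20 (SE 0.11; adjusted p = 0.685 with the block), had the smallest p of the 55 genes without the block and did not pass. These values are from the brightest probe set. The other probe sets that were not dim gave 0.0404 and 0.0806 in old mice, and 0.12 and 0.18 in young mice. The dim probe set had a mean of 3.9791 in both old groups and a difference of 0.0915 in young mice. The opposite signs at the 2 ages were therefore not shared by the other probe sets that were not dim. The other V1 subunits lay between -0.0682 and 0.0993 by genotype and between -0.0964 and 0.0364 by age, over the other factor.

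In the V0 sector, Atp6v0e, a small membrane subunit, gave 8.21, 8.26, 7.96 and 7.97 in old KO muscle, against 7.97, 8.18, 7.96 and 7.90 in old control muscle. Young KO muscle gave 8.04, 8.12, 7.90 and 7.99, against 7.84, 8.01, 7.73 and 7.72 in young control muscle. KO was higher in 8 of 8 pairs, as it was for 3 of the 55 genes (Atp6v0e, Ctsb and Hexa) and 0.708% of all genes. The difference was 0.14 (SE 0.078; adjusted p = 0.441 with the block), with overlapping groups at both ages.

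Its paralogue Atp6v0e2 differed in opposite directions at the 2 ages. It gave 7.74, 8.13, 7.20 and 7.23 in old KO muscle, against 7.75, 8.17, 7.45 and 7.85 in old control muscle, lower in 4 of 4 pairs, with pair differences from -0.6265 to -0.0128. In young mice it gave 7.69, 8.12, 7.65 and 7.70 in KO muscle, against 7.66, 7.66, 7.55 and 7.43 in control muscle, higher in 4 of 4 pairs. The genotype difference was -0.23 in old and 0.22 in young mice (SE 0.20 each), and the interaction of -0.45 (SE 0.28; adjusted p = 0.655 with the block) did not pass. For the interaction 0 of 55 genes had an unadjusted p under 0.05 without the block and 1 with it, against 1.13% and 7.24% of all genes, and 20 of 55 were above 0, against 49.7%.

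Atp6v0a1, a form of the V0 subunit through which protons pass, was higher in old muscle in 7 of 8 pairs (0.26, SE 0.16; adjusted p = 0.282 with the block). Atp6v0d1, which couples the 2 sectors, differed by 0.13 by genotype (SE 0.078; adjusted p = 0.510 with the block). Atp6v0b, of the proton-carrying ring, ranged over 0.18 across all 16 arrays. Of the 20 pump genes and accessory proteins, 13 were higher in KO muscle and 15 in old muscle, with medians of 0.03 and 0.03. The tissue-restricted forms Atp6v0a4, Atp6v0d2, Atp6v1b1, Atp6v1c2 and Atp6v1g2, known mainly from kidney, bone, epithelia or neurons, were dim, and so was Atp6v1e2, known from testis.

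**Figure D4:**
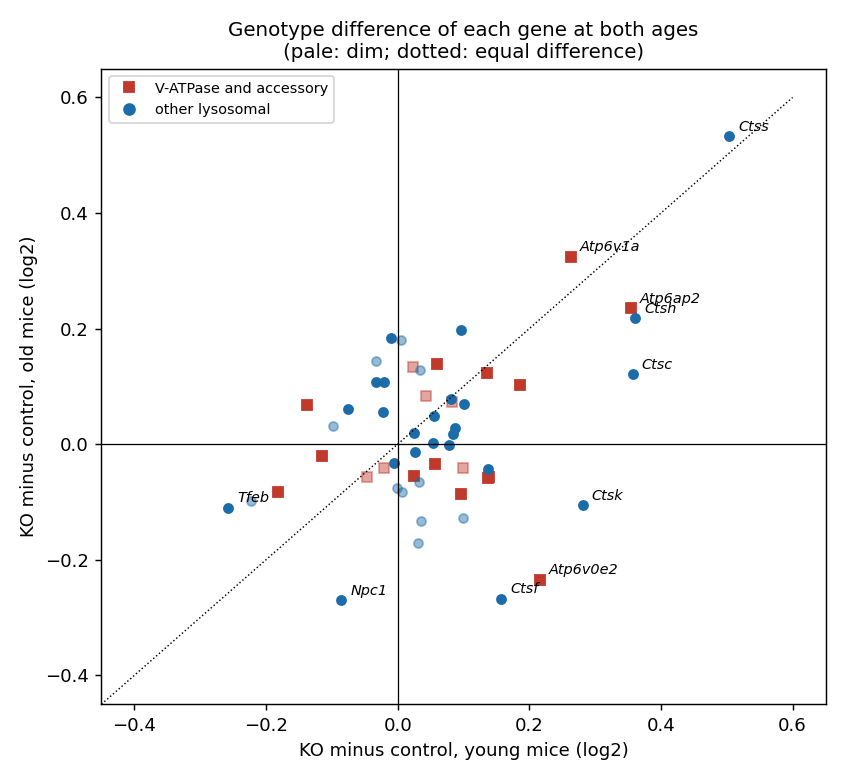
KO minus control difference (log2) of each of the 55 genes in young mice (horizontal) and old mice (vertical), with squares for the V-ATPase and accessory genes, circles for the others and pale marks for dim genes. Ctss, Atp6v1a, Atp6ap2 and Ctsh lie above 0.2 on both axes, and Atp6v0e2 at 0.22 in young and -0.23 in old mice.

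None of the 7 membrane proteins was dim. Lamp1, a heavily glycosylated protein of the lysosomal membrane, gave 11.03, 10.97, 10.89 and 10.89 in old control muscle, against 10.82, 10.76, 10.88 and 10.84 in young control muscle. These groups did not overlap, the smallest gap being between old control number 4 and young control number 3. In KO mice Lamp1 gave 10.99, 10.99, 10.89 and 10.90 in old muscle, against 10.92, 10.96, 10.90 and 10.83 in young muscle, which overlap. The age difference was 0.12 in control mice (SE 0.044) and 0.039 in KO mice (SE 0.044), with an interaction of -0.080 (SE 0.063). By genotype Lamp1 differed by 0.078 in young mice (SE 0.044) and by -0.0017 in old mice.

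Lamp2, Laptm5 and Npc1 varied most among the membrane proteins. Lamp2, the receptor of chaperone-mediated autophagy in one of its isoforms, lay between 7.09 and 8.06 and differed by 0.15 by genotype (SE 0.15), while its other 2 probe sets gave 0.40 and 0.24. Laptm5, known from blood cells, differed by 0.20 by age (SE 0.13), and its second probe set by 0.44. Npc1, which exports cholesterol from the lysosome, ranged over 1.41 and differed by -0.18 by genotype (SE 0.17). Its partner Npc2, a soluble cholesterol carrier, was higher in old muscle in 6 of 8 pairs (0.13, SE 0.069). Mcoln1, the calcium channel of the lysosome, and Scarb2, the receptor that carries glucocerebrosidase, differed by at most 0.0645 by age and by genotype by their brightest probe sets, and the second probe set of Scarb2 gave 0.12 in both.

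Tfeb, the factor that is known to raise transcription of lysosomal genes, gave 7.23, 7.49, 6.14 and 6.60 in old KO muscle, against 7.48, 7.26, 6.32 and 6.84 in old control muscle. Young KO muscle gave 7.06, 7.17, 6.13 and 6.74, against 7.40, 7.12, 6.85 and 6.76 in young control muscle. KO was higher in 2 of 8 pairs (-0.18, SE 0.22; adjusted p = 0.634 with the block), and the age difference was 0.014 (SE 0.22). The 7 genes with the 8-base motif had a median age difference of 0.06, with 4 of 7 higher in old muscle, and the 39 matched genes without it had a median of 0.03, with 29 of 39 higher. By genotype these medians were 0.08 and 0.03. For the 6-base core the order of the age medians turned, at 0.0006 for the 13 genes with it and 0.0342 for the 33 without.

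Differences between replicate numbers ran through most of these genes. Of the 38 genes that were not dim, 37 had a higher mean in numbers 1 and 2 than in numbers 3 and 4, as had 84.5% of all genes that were not dim, with median differences of 0.20 and 0.29. Of the 17 dim genes 8 did. Arrays of numbers 1 and 2 had within-array SDs from 1.99 to 2.04, and those of numbers 3 and 4 from 1.81 to 1.92. For 54 of the 55 genes the SE of the age comparison was smaller with the block.

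**Figure D5:**
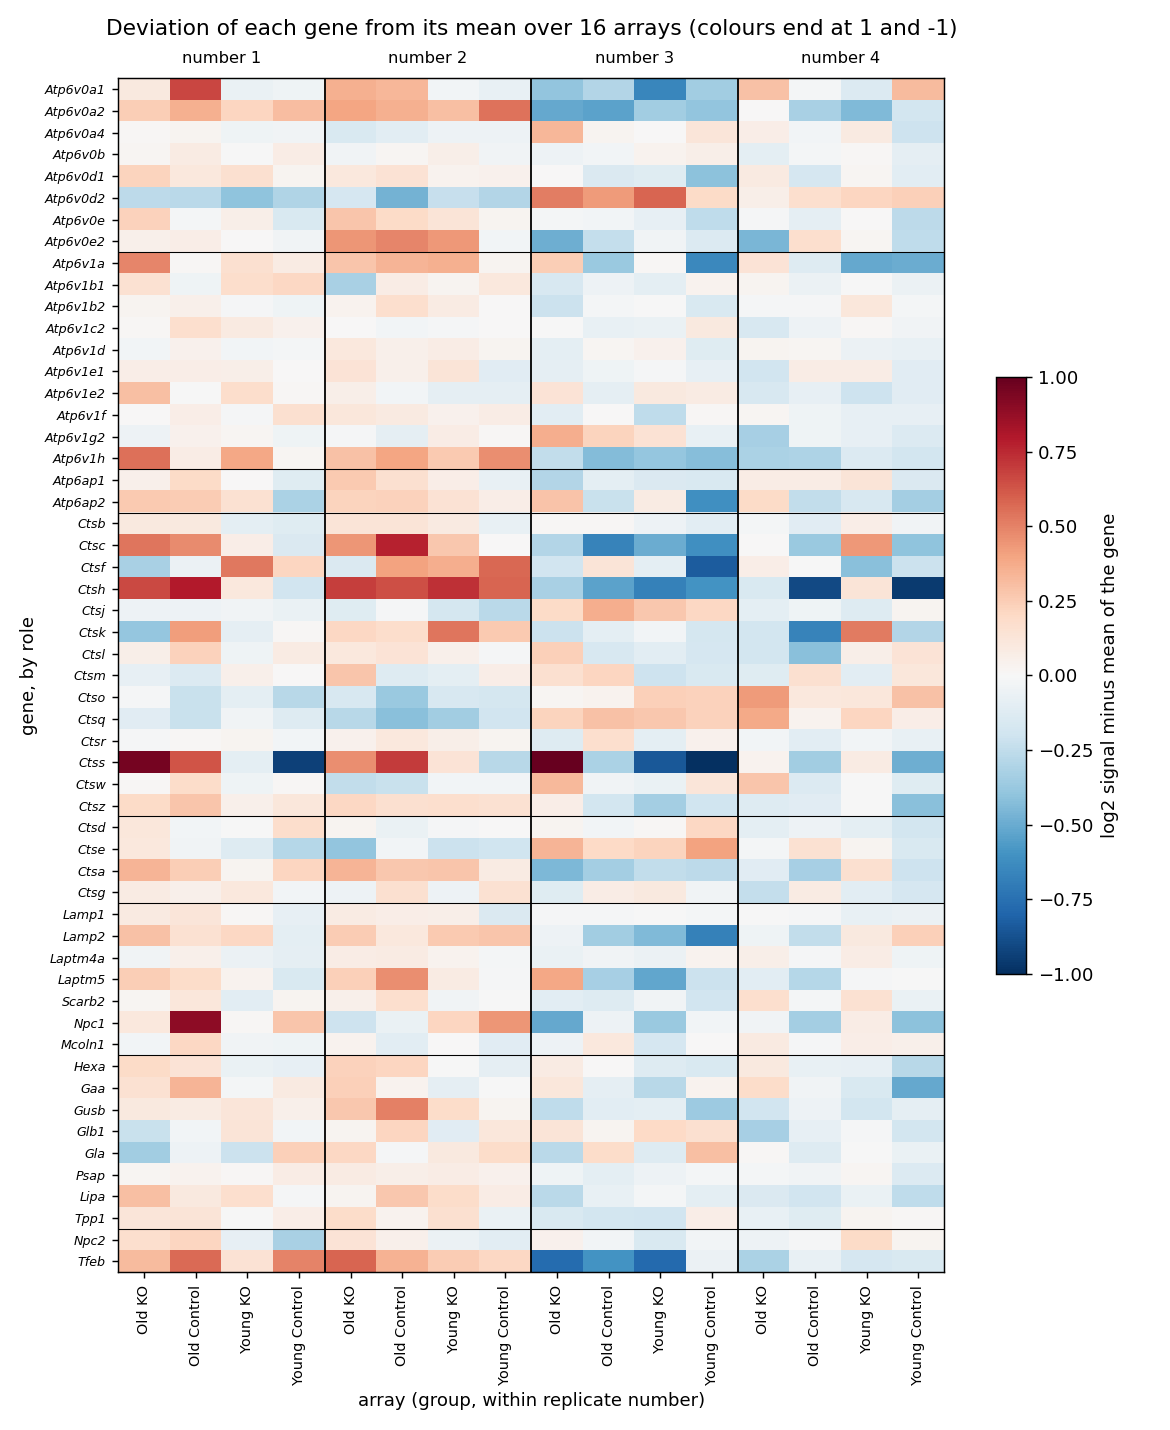
Log2 signal of each of the 55 genes minus its mean over 16 arrays, with arrays ordered by replicate number and, within a number, as old KO, old control, young KO and young control; colours end at 1 and -1. Ctsh, Tfeb and Atp6v1h are above their means in most arrays of numbers 1 and 2 and below them in most of numbers 3 and 4.

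Genes around the lysosome were counted in 7 further lists. Of all genes, 45.5% were higher in old muscle over both genotypes and 47.1% in KO muscle over both ages. With the block 0.579% of all genes passed for age over both genotypes and 0.0% for genotype over both ages. Of 28 other hydrolases and activators, 16 were higher in old muscle and 21 in KO muscle, and 0 passed in any comparison. Their smallest p for age was that of Aga, which cuts sugar chains from asparagine (-0.27, SE 0.11; adjusted p = 0.1765 with the block). Of 21 other membrane proteins 8, of 9 assembly factors of the V-ATPase 3, of 10 genes that sort enzymes to the lysosome 6, and of 12 genes for fusion with it 8 were higher in old muscle, with 0 passing. In the fusion list Vamp8, a SNARE of the late endosome, differed between old and young muscle by -0.46 in KO mice and by 0.46 in control mice (SE 0.21 each). Its interaction of -0.91 (SE 0.30; adjusted p = 0.641 with the block) did not pass.

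Of 18 genes of the TFE factors and of mTORC1 at the lysosome, 10 were higher in old and 16 in KO muscle, with 0 passing. The shares over all genes were 45.5% and 47.1%. Fnip1, a partner of folliculin in that control, was 0.62 higher in KO muscle (SE 0.26; adjusted p = 0.328 with the block), in 7 of 8 pairs, with differences of 0.25 in old mice and 0.99 in young mice (SE 0.37 each). Of 6 inhibitors of cathepsins 6 were higher in old muscle (45.5% of all genes), and 1 passed with the block (0.579% of all genes). It was Serpina3n, a secreted inhibitor of serine proteases such as cathepsin G, at 0.72 (SE 0.25 without and 0.13 with the block), higher in 8 of 8 pairs. Its adjusted p was 0.996 without and 0.0197 with the block. By genotype Serpina3n was lower in KO muscle in 8 of 8 pairs (-0.425, SE 0.25; adjusted p = 0.399 with the block). Cstb, a cystatin that inhibits cysteine cathepsins inside cells, was higher in KO muscle in 8 of 8 pairs (0.27, SE 0.15; adjusted p = 0.328 with the block).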

How the data were processed

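Total RNA (25 ng) was amplified with a whole transcriptome kit and hybridised, per the labels' protocols. The authors deposited one log2 signal for each probe set and array, made with RMA and affy, per the submitters' processing notes. Their versions and the genome build are not given in the sources used here. Of 45037 probe sets, 28898 carried a single symbol. The brightest over 16 arrays stood for its gene, and no gene was filtered. The test was limma 3.58.1 under R 4.3.3 (all 16 arrays, 1 mean per group, trend, two-sided, Benjamini-Hochberg over 17097 genes). The number of arrays limits the precision.

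Whether replicate numbers pair the arrays was checked. Deviations from the group means of same-numbered arrays had correlations of 0.289 to 0.780 in 24 pairs, and of -0.764 to 0.725 in 72 pairs of unlike number (medians 0.677 and -0.455), so the number was also fitted as a block. What it stands for is not given in the labels. Members, lists, tests and the rule for named genes were chosen with earlier results of these data known. Values are given for every array where a gene passed or was among the 3 smallest p of a comparison, and for Tfeb by choice after its values were seen; of the lists, those that passed or were among the 2 smallest p. The alternatives tried were the block, family, an RNA quality signal, other probe set rules, a filter, scaling, no trend and left-out arrays. The fit was also run on simulated arrays with known changes, where only the mean size of the estimates was checked. Those arrays held no families, and false calls were not judged, so the run does not bear on the calls above. Figures were drawn with matplotlib 3.10.9.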

Additional observations from a re-analysis of the deposited data

Results flagged for a closer look

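Of 220 groups of 4 arrays checked, 6 held an array whose gap to the others was large for the group's range, and chance alone marks about 1 in 20. Young KO number 2 gave 8.12 for Atp6v0e2, while the other 3 lay between 7.65 and 7.70. Young KO number 3 gave 5.34 for Laptm5, and the others lay between 5.85 and 5.94. Young control number 4 gave 9.43 for Gaa, and the others lay between 9.94 and 10.03. Without that array the age difference of Gaa over both genotypes was 0.16, against 0.23 with all arrays. The other 3 were dim genes: Atp6v1b1 at 4.28 in old control number 2 (others 4.15 to 4.16), Atp6v1c2 at 2.75 in old KO number 4 (others 2.90 to 2.92), and Ctsj at 3.26 in old control number 3 (others 2.85 to 2.89).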

How the results depend on the processing

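The number of the 55 genes called stayed at 0 under every alternative for genotype at each age, genotype over both ages, the interaction and age in each genotype. For age over both genotypes it was 0, and 1 with the replicate block, with the block and the mean of probe sets, with the block and a filter on dim genes, and with equal array medians. Left-out arrays gave 0 to 1. Counts over all genes depended on the fit. For age over both genotypes they were 10, against 99 with the replicate block, 0 with family, 1 with family and the block, 0 with the pyruvate carboxylase signal and the block, 111 with the mean of probe sets and the block, 22 with the filter, 103 with the filter and the block, 24 with equal medians and 5 to 109 with arrays left out. For age in KO mice they were 3, against 0 with family, 1 with family and the block, 0 with the pyruvate carboxylase signal and the block, 0 with only the arrays compared and 0 to 21 with arrays left out. For age in control mice they were 0, against 1 with family and the block, 8 with the block alone, 3 with the block and the mean of probe sets and 0 to 15 with arrays left out. For genotype over both ages they were 0, against 1 with the pyruvate carboxylase signal and the block and 0 to 2 with arrays left out. Genotype in old mice, genotype in young mice and the interaction gave 0 to 1 with arrays left out. Ctss for age in KO mice turned to -0.0293 with family and the block, and the cause was not tested. The block changed no call of the 55 genes other than that of Hexa. The Hexa difference lay between 0.20 and 0.23 with the block and 1 array left out, and its adjusted p was 0.0445 with equal medians and 0.531 without a trend. Dim genes limit what the arrays can show, since 17 of the 55 lay below the median gene.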
